A study of Mus musculus with 8 samples.

Results

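The genes described here are 8 genes that are used as readouts of injury and repair in the proximal tubule (PT) of the kidney, *Vcam1*, *Spp1*, *Prom1*, *Havcr1*, *Lcn2*, *Cd24a*, *Ccl2* and *Krt20*. They were chosen by symbol with earlier results of these data known, and all 8 were found among the 32285 genes of a single-cell RNA sequencing table of embryonic mouse kidneys. The samples were the kidneys of 4 male embryos at E17.5. This stage follows the sample labels, and the study also names a later day. Mice 1 and 2 were *Trim28* Δ/Δ (tagged ko), in which both floxed *Trim28* alleles are recombined by an EGFP-Cre fusion driven by the *Six2* promoter, and mice 3 and 4 were *Trim28* f/f controls (tagged wt), whose floxed alleles are intact. Whether the controls carried the Cre transgene is not given in the labels. *Six2* is expressed in nephron progenitor cells (NPCs), so recombination is expected in NPCs and in the nephron epithelium that descends from them, but not in the ureteric bud, collecting duct, stroma, endothelium or immune cells. The cells of each mouse carried a DNA tag, a cell multiplexing oligonucleotide (CMO), and all cells were sequenced as 1 pool. That pool also held cells under tags of no named mouse, which were left out. Each comparison thus rests on 2 mice against 2 mice of that pool. The series also lists 6 bulk RNA samples, which were not analysed here.

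The proximal tubule reabsorbs most of the filtered solutes and is the segment most sensitive to injury. After injury, surviving tubule cells lose transport functions, take on features of immature epithelium and make adhesion molecules, chemokines and secreted matrix proteins. Part of them return to the mature state, while others keep a state that is recognised by *Vcam1*. *Vcam1* encodes an adhesion molecule that binds leukocyte integrins, *Spp1* encodes osteopontin, a secreted matrix protein, and *Prom1* encodes the membrane protein CD133, which marks immature and regenerating tubule cells. *Havcr1* encodes KIM-1, a receptor for apoptotic cells that injured PT cells make, and *Lcn2* encodes the secreted lipocalin NGAL. *Cd24a* encodes a surface glycoprotein of immature epithelia, *Ccl2* a chemokine that attracts monocytes, and *Krt20* a keratin. *Vcam1*, *Spp1* and *Prom1* were picked by the study on these same samples, so their direction here is not independent evidence.

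The tag sequences tie each cell to its mouse and genotype, and every comparison below depends on them. They differ from each other at no fewer than 11 of 15 bases, and capitals mark the whole tag.
Mouse 1, ko: CGCGATATGGTCGGA
Mouse 2, ko: CGGATTCCACATCAT
Mouse 3, wt: AAGATGAGGTCTGTG
Mouse 4, wt: AAGCTCGTTGGAAGA

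Positions are those of the GENCODE annotation of GRCm38, and the sources used here do not give the build behind the counts. *Spp1* (ENSMUSG00000029304) lies on the plus strand at chr5:104435118-104441050. *Prom1* (ENSMUSG00000029086) lies on the minus strand of the same chromosome, at chr5:43993620-44102032. *Vcam1* (ENSMUSG00000027962) is on the minus strand at chr3:116109949-116129688, with 9 exons in its longest transcript. The predicted gene *Gm43109* overlaps *Vcam1* on the opposite strand, *Gm42793* overlaps *Spp1* on the same strand, and *Gm42716* overlaps *Prom1* on the same strand. Reads that *Spp1* and *Prom1* share with those same-strand genes are uncertain. The 250 bases before the first RefSeq start (GRCm38.p6) of *Spp1* and of *Prom1* are shown because both genes were higher in the PT-like cells of both *Trim28* Δ/Δ mice. Capitals mark matches on either strand. The letters searched were TATAAA for the box of that name. For the core of the HNF1 motif, a factor of the proximal tubule, they were GTTAAT. For AP-1 they were TGANTCA, and a motif of NF-kappaB was searched as well.
Spp1 promoter, chr5:104434861-104435110, plus strand: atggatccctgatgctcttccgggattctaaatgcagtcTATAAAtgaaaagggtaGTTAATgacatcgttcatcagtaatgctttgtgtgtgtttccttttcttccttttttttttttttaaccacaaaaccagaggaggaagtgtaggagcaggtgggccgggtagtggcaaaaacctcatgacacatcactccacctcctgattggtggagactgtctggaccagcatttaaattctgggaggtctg
Prom1 promoter, chr5:44101737-44101986, minus strand: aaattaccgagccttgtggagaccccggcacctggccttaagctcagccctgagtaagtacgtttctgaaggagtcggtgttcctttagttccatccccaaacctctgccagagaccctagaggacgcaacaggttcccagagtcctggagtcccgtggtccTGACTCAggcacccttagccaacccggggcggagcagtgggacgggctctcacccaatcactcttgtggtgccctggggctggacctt
The *Spp1* window held TATAAA and GTTAAT, found in 12.37% and 6.432% of 32851 promoters of that length, and the *Prom1* window held TGANTCA, found in 6.749%. The NF-kappaB motif, found in 1.412% of promoters, was in neither window. RefSeq promoters were matched for 5 of the 8 genes, with 9 entries, and not for *Vcam1*, *Cd24a* and *Ccl2*. The *Prom1* window precedes the RefSeq start used but lies inside the annotated span of the gene given above, so it is not upstream of that whole span. A match describes the letters only.

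After calling cells and assigning them by tag, 7363 cells remained, between 1316 and 2749 per mouse, with between 25761268 and 52777501 unique molecular identifiers (UMIs) and a median of 16386 to 17354 UMIs per cell. Clusters were named from fixed markers, and 18 classes had at least 10 cells in every mouse. Mouse 3 stood apart. Over the sum of PT-like and early PT-like cells, the metallothionein gene *Mt1* reached 336, 280, 2431 and 425 CPM (UMIs of the gene over all UMIs of that class and mouse, in the usual scaling of counts) in mice 1 to 4, and 169 of the 170 cells of 1 collecting duct-like cluster came from mouse 3. The main results are also given without this mouse. *Trim28* in PT-like cells was at 24.4 and 24.9 CPM in mice 1 and 2 and at 58.8 and 78.8 CPM in mice 3 and 4, and had a negative log2 change in 14 of 18 classes, of which 8 were called (NPC-like, renal vesicle-like, S-shaped body (SSB)-like, early PT (ErPT)-like, PT-like, loop of Henle (LOH)-like and distal tubule (DT)-like cells, and cluster 5, an unnamed cluster led by *Spon1* and *Fgf8*). In podocyte-like cells *Trim28* was at 32.8 and 25.3 CPM against 76.9 and 88.6 CPM (-1.51, SE 0.40, edgeR adjusted p = 0.268). The assay counts the 3' end of transcripts, outside the floxed segment, so this does not check the deletion itself.

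The PT-like class held 993 cells in 2 clusters. Cluster 2, whose leading genes include *Gatm*, *Fbp1* and *Spp2*, had 9 of 9 PT markers raised over the other clusters. Cluster 6 was led by *Aadat*, *Cryab* and *Serpina6* and had 7 of 9 raised. Cluster 6 supplied 135 of the 314 PT-like cells of mouse 1, 176 of 346 in mouse 2, 21 of 147 in mouse 3 and 87 of 186 in mouse 4, so the makeup of the class differed between mice. ErPT-like cells were a single cluster of 817 cells led by *Osr2*, *Cdh6* and *Cthrc1*, with 84, 120, 454 and 159 cells in mice 1 to 4.

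The 8 genes occupied different places in the embryonic kidney. Levels are given as CPM with the SD over the 4 mice. They are a description, since the classes were made from the same cells.

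**Figure D1:**
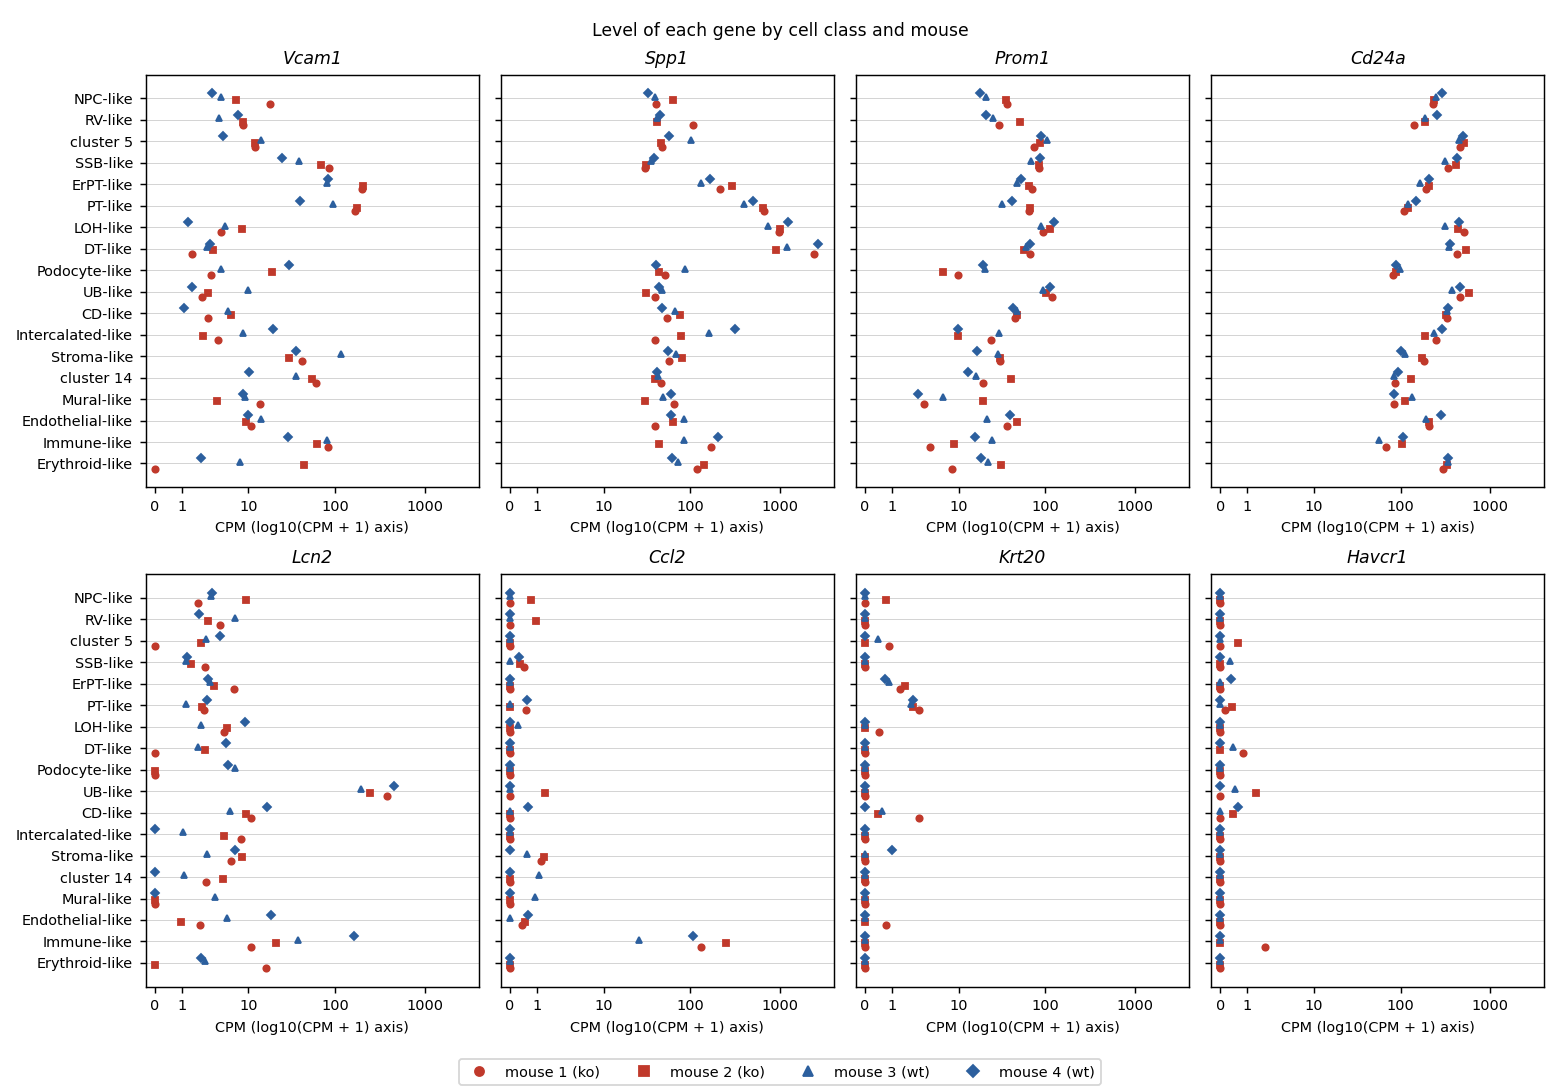
Level of each gene (CPM on a log10(CPM + 1) axis) in 18 cell classes, 1 point for each mouse (red, ko; blue, wt). *Ccl2* is seen in immune-like cells and *Lcn2* mostly in ureteric bud (UB)-like cells, *Vcam1* is highest in ErPT-like and PT-like cells, and *Spp1* is highest in DT-like, LOH-like and PT-like cells, where the DT-like mean is 1792 CPM here and 826 CPM at resolution 0.4.

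*Vcam1* was highest in ErPT-like cells, at 142 ± 68.3 CPM (SD, n = 4), and in PT-like cells, at 120 ± 63.9 CPM (SD, n = 4), and the ranges of both classes over mice overlapped. Immune-like, stroma-like and SSB-like cells followed at 63.9, 56.2 and 54.3 CPM, and neighbours in this order overlapped down to the DT-like cells, which were lowest at 2.76 ± 0.805 CPM. Of all *Vcam1* UMIs of a mouse, PT-like cells held 66.5% and 63.1% in mice 1 and 2 and 19.99% and 29.4% in mice 3 and 4, and ErPT-like cells held 13.9% and 19.1% against 35.2% and 35.0%. These shares also carry the numbers of cells of each class, and in the controls the split between PT-like and ErPT-like cells depended on the setting. Over 10 settings, the reported one included, PT-like cells outnumbered ErPT-like cells in 10 for mouse 1, 10 for mouse 2, 3 for mouse 3 and 7 for mouse 4, and in mouse 3 the counts of PT-like and ErPT-like cells were 147 and 454 here, 368 and 198 at resolution 1.2 and 398 and 162 with a tag share of at least 70%.

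*Spp1* had another order. It was highest in DT-like cells at 1792 ± 871 CPM (SD, n = 4), where mice ranged from 903 to 2654 CPM, and next in LOH-like cells at 990 ± 205 CPM, which ranged from 732 to 1232 CPM and overlapped with the DT-like range. The DT-like level depended on the clustering, with a mean of 826 CPM at resolution 0.4. The LOH-like mean at that resolution is not given here, so whether the order changed is not shown. PT-like cells followed at 555 ± 125 CPM, from 401 to 661 CPM, below every LOH-like value and above every ErPT-like value (201 ± 69.9 CPM, up to 293 CPM). All other classes were between 34.1 and 149 CPM, in neighbouring ranges that overlapped. The free RNA of the suspension, read from barcodes with 10 to 100 UMIs, held *Spp1* at 272 CPM, so a low level in a class need not come from its own cells.

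*Prom1* was spread more evenly over epithelia. It was at 107 ± 11.8 CPM (SD, n = 4) in UB-like cells, 105 ± 15.8 CPM in LOH-like cells, 88.6 CPM in cluster 5 and 80.7 CPM in SSB-like cells. The lowest SSB-like value, 68.8 CPM, lay above the highest DT-like value, 66.6 CPM. ErPT-like and PT-like cells were in the middle of the order at 58.9 ± 10.4 and 51.8 ± 17.3 CPM, and mural-like cells were last at 8.05 CPM. *Cd24a* had a similar order. It was highest in cluster 5 (475 ± 26.6 CPM), UB-like cells (465 ± 82.7 CPM) and LOH-like cells (425 ± 81.1 CPM), and low in PT-like cells (124 ± 16.4 CPM, from 109 to 148 CPM), where it ranked 14 of 18. Over the 18 classes the mean log2(CPM + 1) of *Prom1* and *Cd24a* had a Pearson correlation of 0.77, the highest of any pair of the 8 genes, while that of *Vcam1* and *Spp1* was -0.05. The classes share libraries and mice, so these values are descriptions.

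The secreted proteins *Lcn2* and *Ccl2* were nearly absent from the proximal tubule. *Lcn2* was at 321 ± 121 CPM (SD, n = 4) in UB-like cells, between 196 and 458 CPM by mouse, and UB-like cells held 68.5% of its UMIs. It was among the leading genes of that cluster. PT-like cells had 2.26 ± 0.685 CPM, which became 0.424 CPM once expected free RNA was subtracted. A UMI was found in 4.93% of PT-like cells (median 22603 UMIs) and in 5.04% of DT-like cells (median 18727.5 UMIs), so the PT-like share was at the background of free RNA. In immune-like cells the mean of 58.4 CPM rested on few cells, since a single cell of mouse 4 held 90 of the 95 UMIs of that mouse and a single cell of mouse 3 held 35 of 42.

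*Ccl2* was counted in 41.8% of the 170 immune-like cells, at 129 ± 92.8 CPM (SD, n = 4), and that class held 89.6% of its UMIs. No other class exceeded 0.792 CPM. In PT-like cells 7 of 993 cells had a UMI, or 0.705% (exact Clopper-Pearson 95% interval 0.284 to 1.45%), and in ErPT-like cells 0 of 817, which allows a share of up to 0.367%. Limits for a count of 0, here and below, are 3 divided by the number of cells and are not exact intervals. Both intervals and limits cover counting error only.

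*Havcr1* and *Krt20* were rare. *Havcr1* was found in 15 of the 7363 cells, or 0.204%, and in 4 of 993 PT-like cells, or 0.403% (0.110 to 1.03%), 1 in mouse 1 and 3 in mouse 2, against 0 of 147 in mouse 3, which allows up to 2.04%, and 0 of 186 in mouse 4, which allows up to 1.61%. A difference between genotypes was not detectable at this depth. The free RNA held no *Havcr1* UMI. *Krt20* was low but placed in the proximal tubule. PT-like cells had 2.51 ± 0.308 CPM (SD, n = 4), from 2.27 to 2.96 CPM, above every value of ErPT-like cells, which had 1.18 ± 0.514 CPM, and they held 66.9% of its UMIs. A *Krt20* UMI was found in 5.34% of PT-like cells and in 0 of 629 SSB-like cells (median 24398 UMIs), which allows up to 0.477%.

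The genes whose class profile was most like each member, by Pearson correlation of mean log2(CPM + 1) over 18 classes, were as follows. *Vcam1* was most like *Serpina1a*, *Clrn3* and *Pdzd3* (0.82, 0.82 and 0.82). *Spp1* was most like *Fabp3*, *Kl* and *Tmem116* (0.93, 0.93 and 0.90), and *Prom1* was most like *Bcl11b*, *Skap1* and *Spsb4* (0.91, 0.89 and 0.89). *Krt20* was most like *Defb29*, *Ass1* and *Cltrn* (0.91, 0.90 and 0.89), and *Cd24a* was most like *Hoxb8*, *Hap1* and *Cdh3* (0.87, 0.86 and 0.86). *Lcn2* was most like *Kcnn4*, *Ret* and *Gm14133* (0.84, 0.80 and 0.79), of which *Ret* is the receptor that marks ureteric bud tips. *Ccl2* was most like the immune genes *Il10ra* and *P2ry13* and the predicted gene *Gm38843* (0.995, 0.995 and 0.997). For *Havcr1*, with 16 UMIs in all cells, the nearest genes *Ptprc*, *Ticam2* and *Calhm6* (0.84, 0.82 and 0.81) rest on at most 4 UMIs in a class.

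The comparison of genotypes within a class asks whether loss of *Trim28* in NPCs goes with a higher level of these genes per PT cell. For each class the UMIs of a mouse were added up and tested with edgeR's quasi-likelihood test, 2 mice against 2, with Benjamini-Hochberg adjustment over all genes tested in that class and a threshold of 0.05. A positive log2 change means a higher level in *Trim28* Δ/Δ mice, and errors are SE. The labels name 4 separate mice, and p-values measure the spread between these mice only.

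In PT-like cells *Vcam1*, *Spp1* and *Prom1* had their lowest ko value above their highest wt value, but none of the 8 genes passed the threshold. *Vcam1* was at 167 and 176 CPM in mice 1 and 2 and at 95.8 and 40.5 CPM in mice 3 and 4. The *Trim28* Δ/Δ mice were close to each other, while the controls differed more than 2-fold among themselves. The log2 change was 1.32 (SE 0.34, edgeR adjusted p = 0.257). *Spp1* was at 661 and 651 CPM against 401 and 506 CPM, a log2 change of 0.51 (SE 0.13, edgeR adjusted p = 0.226). *Prom1* was at 65.9 and 66.9 CPM against 32.5 and 42 CPM, a log2 change of 0.80 (SE 0.14, edgeR adjusted p = 0.0952), the smallest adjusted p of the 8 genes in this class.

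The other members tested in PT-like cells overlapped between genotypes. *Cd24a* was at 109 and 120 CPM against 120 and 148 CPM (log2 change -0.25, SE 0.13, edgeR adjusted p = 0.624). *Lcn2* was at 2.58 and 2.39 CPM against 1.26 and 2.80 CPM, and *Krt20* at 2.96 and 2.39 CPM against 2.27 and 2.43 CPM. *Ccl2* and *Havcr1* had too few UMIs to be tested. Of the 6 members tested, 0 passed the adjusted threshold, against 0.426% of 12442 genes, and 3 had an unadjusted p under 0.05, against 9.54% of genes. DESeq2 called 1 of them, *Prom1* (adjusted p = 0.0421), and 0.733% of all genes. The same 3 did not overlap between genotypes in the direction of *Trim28* Δ/Δ, against 22.7% of genes. They are *Vcam1*, *Spp1* and *Prom1*, which the study picked on these same samples, so these counts are no test against all genes.

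These calls depended on the mice in the fit, and the control mice differed from each other. Without mouse 1 the log2 changes of *Vcam1*, *Spp1* and *Prom1* were 1.345, 0.50 and 0.82, and without mouse 2 they were 1.27, 0.52 and 0.80. None of the 3 genes was called in either of these fits. Without mouse 3, *Vcam1* (log2 change 2.08, edgeR adjusted p = 2.24e-10) and *Prom1* (0.66, edgeR adjusted p = 0.00273) passed the threshold, and without mouse 4 *Vcam1* (0.78, edgeR adjusted p = 6.11e-05), *Spp1* (0.65, edgeR adjusted p = 7.98e-04) and *Prom1* (0.97, edgeR adjusted p = 3.32e-05) did. In those fits the single control is assumed to vary like the pair of *Trim28* Δ/Δ mice, and the count of all genes called went from 53 to 425 (3.21%) and 1600 (12.1%).

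**Figure D2:**
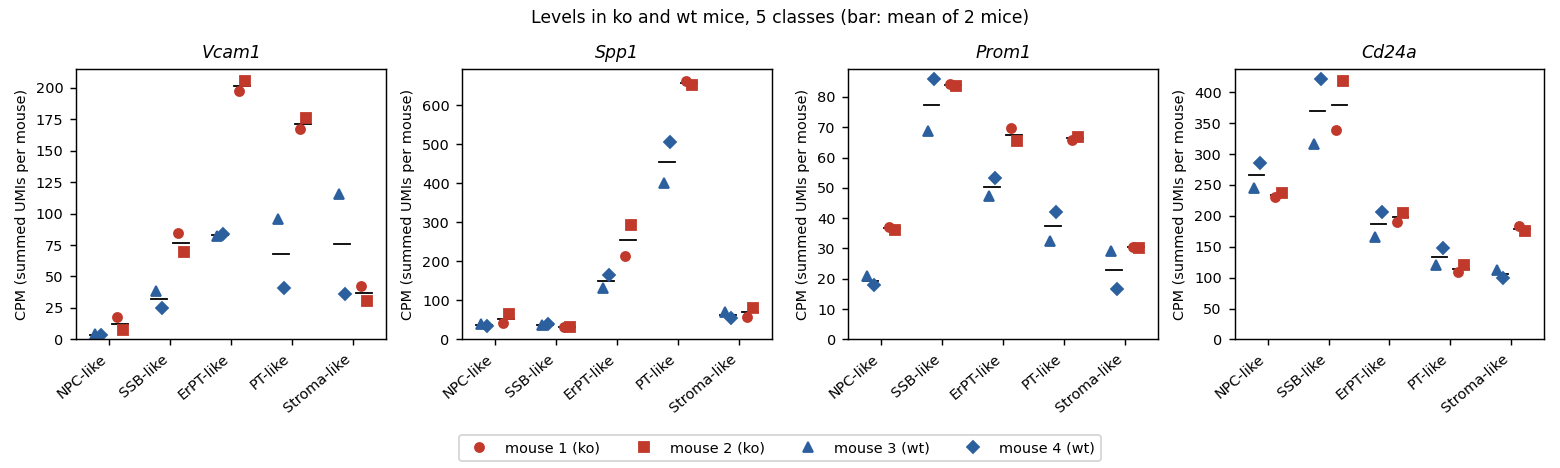
CPM of *Vcam1*, *Spp1*, *Prom1* and *Cd24a* in 5 classes, 1 point for each mouse (red, ko; blue, wt), with the mean of 2 mice as a bar, on linear axes from 0. In ErPT-like cells the *Vcam1* points of the ko mice, 197 and 205 CPM, lie above those of the wt mice, 81.9 and 84.1 CPM, while in stroma-like cells the highest point is wt mouse 3 at 116 CPM.

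ErPT-like cells gave the only call among the members across all classes. *Vcam1* was at 197 and 205 CPM in mice 1 and 2 and at 81.9 and 84.1 CPM in mice 3 and 4, which is 2.40-fold higher in *Trim28* Δ/Δ mice (log2 change 1.26, SE 0.14, edgeR adjusted p = 0.00669). Both genotypes were tight, and the groups were far apart. Of the 4 members tested in ErPT-like cells 1 was called, against 0.373% of 11256 genes. This gene, *Vcam1*, was picked by the study on these same samples. Leaving out mouse 1 or mouse 2 kept the change (1.28 and 1.24) but not the call (edgeR adjusted p = 0.228 and 0.140), and leaving out mouse 3 or mouse 4 kept both.

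The remaining members in ErPT-like cells had smaller differences. *Spp1* was at 214 and 293 CPM against 133 and 165 CPM (log2 change 0.77, SE 0.18, edgeR adjusted p = 0.213), and *Prom1* at 69.7 and 65.5 CPM against 47.3 and 53.1 CPM (0.42, SE 0.18, edgeR adjusted p = 0.641). Neither overlapped between genotypes, as was the case in that direction for 18.9% of genes. Without mouse 3 the log2 changes of *Spp1* and *Prom1* were 0.67 and 0.36, and without mouse 4 they were 0.90 and 0.45. *Cd24a* was at 190 and 205 CPM against 166 and 207 CPM, and did overlap.

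Markers of other cells were set beside these results. In ErPT-like cells the summed level of 9 PT markers was lower in *Trim28* Δ/Δ mice (1014 and 1227 CPM against 1913 and 2167 CPM), and that of 6 erythroid markers was higher (4689 and 3922 CPM against 1465 and 1201 CPM). The estimated share of free RNA followed the erythroid markers, from which it was computed, with 14.5% and 12.2% against 4.54% and 3.73%. The 8 immune markers summed to 36.3 and 26.0 CPM against 24.1 and 24.1 CPM, and the 8 stroma markers to 56.6 and 49.7 CPM against 65.3 and 65.5 CPM, and none of these genes was at 0 in every mouse. In PT-like cells the 9 PT markers summed to 7724 and 6881 CPM against 9202 and 8117 CPM, and the stroma markers to 45.2, 31.1, 107 and 40.5 CPM in mice 1 to 4. The *Vcam1* level of the free RNA was 23.3 CPM, and with free RNA subtracted *Vcam1* stayed called in ErPT-like cells. The part of the other values in the result was not tested.

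The 2 clusters of PT-like cells were also taken 1 at a time. In cluster 6, *Vcam1* was at 217 and 233 CPM against 68.9 and 43.1 CPM, a log2 change of 2.11 (SE 0.20, edgeR adjusted p = 0.00134), with only 21 cells of mouse 3, in a fit that called 0.413% of genes. It stayed called without each mouse, with log2 changes from 1.69 without mouse 4 to 2.35 without mouse 3. In cluster 2 *Vcam1* was at 138 and 131 CPM against 100 and 38.7 CPM (0.95, SE 0.33, edgeR adjusted p = 0.335). No member was called in cluster 2 without mouse 1 or mouse 2, where the *Vcam1* change was 0.91 and 0.99. Without mouse 3 (1.82) and without mouse 4 (0.42) *Vcam1* was called. *Spp1*, *Prom1* and *Cd24a* were likewise called in cluster 2 without mouse 3 (0.45, 0.57 and -0.67) and without mouse 4 (1.07, 1.15 and -0.71), in fits that called 4.31% and 14.7% of all genes. In cluster 6 *Prom1* was at 69.0 and 78.0 CPM against 65.1 and 42.2 CPM (0.57, SE 0.21, edgeR adjusted p = 0.549). It was called without mouse 3 (0.78, edgeR adjusted p = 0.00966, 2.39% of all genes called) but not without mouse 4 (0.16, edgeR adjusted p = 0.839), and *Spp1* in cluster 6 was called without mouse 4 (0.54, edgeR adjusted p = 0.0371, 3.51% of all genes called) but not without mouse 3 (0.07, edgeR adjusted p = 0.860). *Spp1* was at 895 and 948 CPM against 435 and 682 CPM in cluster 2 (0.73, SE 0.18, edgeR adjusted p = 0.162) and at 273 and 272 CPM against 184 and 254 CPM in cluster 6 (0.24, SE 0.15, edgeR adjusted p = 0.777). *Cd24a* in cluster 2 was at 61.5 and 75.0 CPM against 111 and 110 CPM (-0.69, SE 0.15, edgeR adjusted p = 0.101). The difference between the clusters was not tested, and splitting the class was chosen after the data were seen. The members were not removed from the genes used to make these clusters, and the clusterings without them were not split in this way.

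With PT-like and ErPT-like cells joined, also chosen after the data were seen, *Vcam1* was at 172 and 182 CPM against 86.4 and 56.4 CPM (1.31, SE 0.20, edgeR adjusted p = 0.0421), in a fit that called 0.781% of genes, and was not called without mouse 1 or mouse 2 (edgeR adjusted p = 0.103 and 0.179). The log2 change of *Vcam1* in the joined cells was 1.68 without mouse 3 and 1.03 without mouse 4. This sum mixes levels per cell with the shares of its classes, since 23.9% and 23.2% of ko cells (mice 1 and 2) were PT-like, against 5.35% and 10.3% in mice 3 and 4. Over the 10 settings the PT-like share of mouse 3 was between 4.30% and 13.4%, that of mouse 4 between 7.54% and 12.2%, and those of mice 1 and 2 between 18.1% and 24.2% and between 15.3% and 24.0%.

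**Figure D3:**
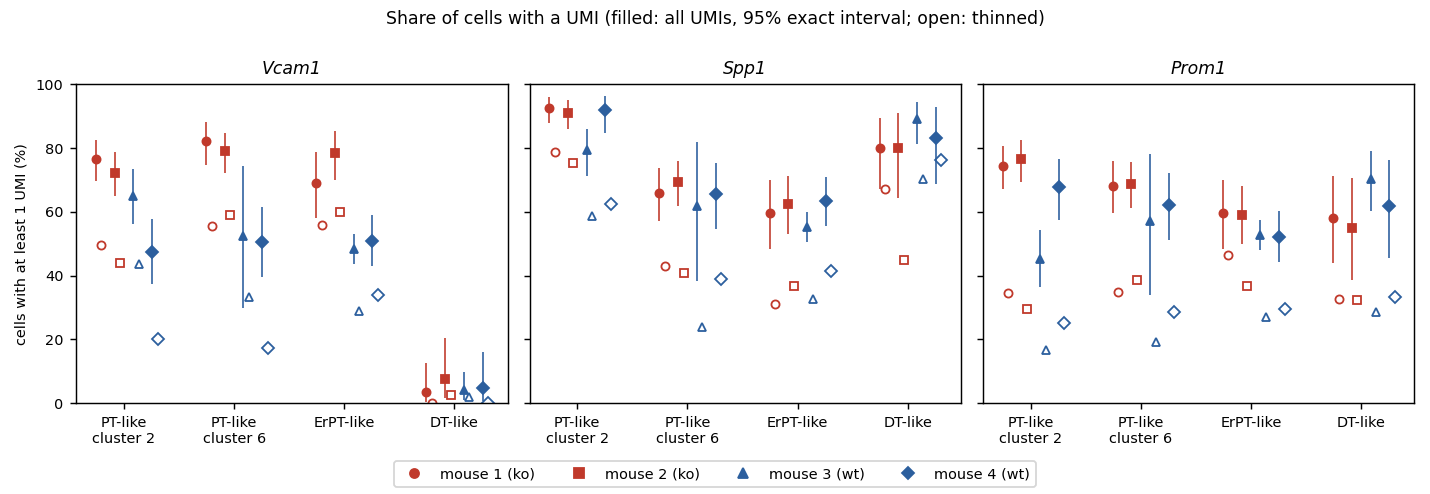
Percent of cells with at least 1 UMI of *Vcam1*, *Spp1* and *Prom1* in the PT-like clusters, ErPT-like and DT-like cells, by mouse (red, ko; blue, wt). Filled points use all UMIs, with exact 95% binomial intervals, and open points use cells thinned to 6800 UMIs. In ErPT-like cells the *Vcam1* share is 69.0% and 78.3% in ko mice and 48.2% and 50.9% in wt mice, and DT-like cells give a background of 3.64% to 7.50%.

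Shares of cells with a UMI were compared over mice, where an exact permutation test of 2 against 2 cannot give a p below 0.333. Among ErPT-like cells a *Vcam1* UMI was present in 69.0% (mouse 1) and 78.3% (mouse 2), against 48.2% (mouse 3) and 50.9% (mouse 4). Thinning every cell to 6800 UMIs kept all cells and gave 56.0% and 60.0% against 28.9% and 34.0%. In PT-like cells the *Vcam1* share was 79.0% and 75.7% against 63.3% and 48.9%. Thinned, it was 52.2% and 51.7% against 42.2% and 18.8%. DT-like cells, in which *Vcam1* was lowest, had a UMI in 4.62% of cells, or 1.26% after thinning, at a median of 18727.5 UMIs against 16909 in ErPT-like and 22603 in PT-like cells, so these shares lay well above the background.

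*Spp1* was found in most PT-like cells of every mouse, in 81.2% and 80.1% against 76.9% and 79.6%, while UB-like cells gave 51.3% (median 16162 UMIs). After thinning, the *Spp1* share was 63.4% and 57.8% against 53.7% and 51.6%, and 25.1% in UB-like cells. For *Prom1* the PT-like share was 71.7% and 72.5% against 46.9% and 65.1%. Thinned, it was 34.7% and 34.1% against 17% and 26.9%, with 6.21% and, thinned, 3.73% in mural-like cells (median 11528 UMIs). The *Trim28* Δ/Δ mice were above both controls in each of these shares, by little for *Spp1*. How many of all genes separate in this way by shares of cells was not computed. By CPM in PT-like cells, 22.7% of genes did not overlap in that direction. *Vcam1*, *Spp1* and *Prom1* were picked by the study on these same samples.

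The 3 genes were also counted together in single cells. Over thinned PT-like and ErPT-like cells, a UMI of each of *Vcam1*, *Spp1* and *Prom1* was found in 42 of 398 cells of mouse 1 (10.6%), 36 of 466 of mouse 2 (7.73%), 16 of 601 of mouse 3 (2.66%) and 9 of 345 of mouse 4 (2.61%). None of the 3 was found in 11.8% and 12% against 30.9% and 27.0%. These shares carry the differences of the single genes and of the class makeup, and were not tested.

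**Figure D4:**
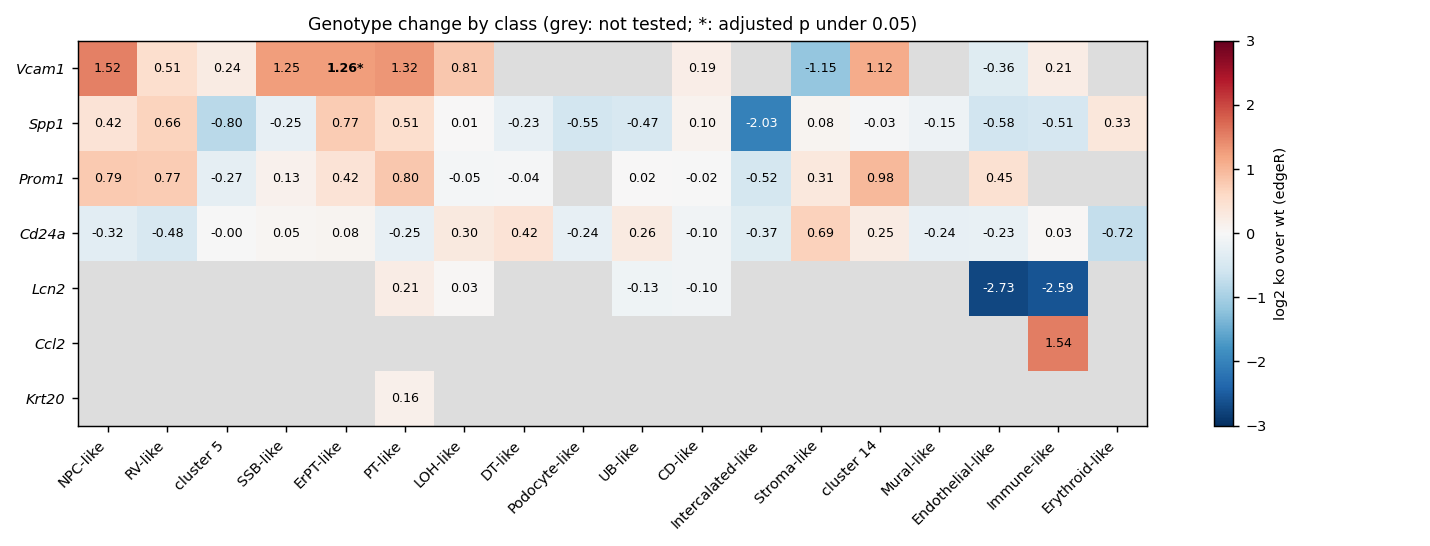
Log2 change of each member (ko over wt, edgeR) in 18 classes, with red for higher and blue for lower in ko, grey where the gene had too few UMIs to be tested, and a star for an adjusted p under 0.05. The only star is *Vcam1* in ErPT-like cells (1.26), and *Havcr1* was tested in no class.

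Outside the proximal lineage edgeR called no member in the 4 mice, though other settings called some. Over 18 classes the members gave 70 tests, of which 1 was called (against 0.324% of all tests of all genes) and 20 had an unadjusted p under 0.05 (against 6.65%). The mice are the same in every class, so the classes are not independent. The members also include *Vcam1*, *Spp1* and *Prom1*, which the study picked on these same samples, so these counts are no test against all genes. The share of genes called was 1.51% in NPC-like, 0.189% in SSB-like, 0.861% in cluster 5, 0.837% in DT-like, 0.238% in LOH-like and 0.0288% in immune-like cells, and 0 in stroma-like cells (441 genes at an unadjusted p under 0.05) and UB-like cells (337 genes). *Vcam1* was tested in 12 classes and had a positive log2 change in 10 of them. The unnamed cluster 5 had its best marker score for SSB, at 0.8878. *Vcam1* there was at 11.94 and 11.99 CPM against 14.3 and 4.82 CPM (0.24, SE 0.45, edgeR adjusted p = 0.941). The log2 change in cluster 5 was 1.27 without mouse 3 and -0.296 without mouse 4. The SSB-like class is cluster 1, in which 6 of 7 SSB markers were raised. Its leading genes are proliferation genes such as *Ube2c*, *Cenpf* and *Top2a*. Its SSB score of 0.883 was close to its renal vesicle score of 0.846. In these cells *Vcam1* was at 84.4 and 69.2 CPM against 38.8 and 25.0 CPM (log2 change 1.25, SE 0.23, edgeR adjusted p = 0.145), and it was called without mouse 2 (edgeR adjusted p = 0.0387), mouse 3 or mouse 4, and by DESeq2 (adjusted p = 0.00698). Over all classes the count of calls was 0 without mouse 1, 1 without mouse 2, 13 without mouse 3 and 15 without mouse 4, where the spread is taken from the *Trim28* Δ/Δ pair alone. The share of all genes called rose too, without mouse 3 and without mouse 4, to 1.8% and 9.89% of all tests over the 18 classes, and to 5.56% and 10.3% in NPC-like, 2.31% and 11.3% in SSB-like and 2.3% and 18.3% in ErPT-like cells. In NPC-like cells *Vcam1*, which was low there, was at 18.1 and 7.10 CPM against 4.42 and 3.33 CPM (1.52, SE 0.49, edgeR adjusted p = 0.252), with 0.76 without mouse 1 and 2.09 without mouse 2.

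The NPC-like class itself differed between mice. It joins clusters 7 and 10, which supplied 33 and 15 cells of mouse 1, 39 and 34 of mouse 2, 128 and 85 of mouse 3 and 179 and 212 of mouse 4. Its 7 NPC markers summed to 275 and 393 CPM in *Trim28* Δ/Δ mice against 777 and 951 CPM, its 7 renal vesicle markers to 2405 and 2086 CPM against 1407 and 1398 CPM, and its 7 ErPT markers to 403 and 330 CPM against 259 and 178 CPM. *Prom1* in NPC-like cells was at 37.2 and 36.2 CPM against 20.9 and 17.8 CPM (0.79, SE 0.25, edgeR adjusted p = 0.225). The part of these markers in the values of *Vcam1* and *Prom1* was not tested.

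In stroma-like cells, which lie outside the *Six2* lineage, *Vcam1* was at 42.7 and 30.3 CPM against 116 and 36.2 CPM (-1.15, SE 0.46, edgeR adjusted p = 0.971). This difference rested on mouse 3. Without it the log2 change was -0.03 (edgeR adjusted p = 0.992), and without mouse 4 it was -1.71 and was called (edgeR adjusted p = 8.09e-06, 4.77% of all genes called). Cluster 14, an unnamed cluster of 177 cells led by *Pdgfrb* and *Ebf1* whose best marker score was that of stroma, had the opposite sign. *Vcam1* there was at 60.8 and 54.8 CPM against 35.8 and 10.2 CPM (1.12, SE 0.49, edgeR adjusted p = 0.728), with 2.42 without mouse 3, which was called (edgeR adjusted p = 2.70e-04, 1.57% of all genes called), and 0.60 without mouse 4 (edgeR adjusted p = 0.505). *Trim28* in cluster 14 was at 135 and 114 CPM against 118 and 141 CPM (-0.10, SE 0.23, edgeR adjusted p = 0.982).

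*Spp1* and *Prom1* had no common direction over the classes. *Spp1* was tested in 18 classes, with a positive log2 change in 8 and a negative one in 10, and *Prom1* in 14, with 9 positive and 5 negative. In intercalated-like cells *Spp1* was at 40.2 and 78.0 CPM against 162 and 317 CPM (-2.03, SE 0.46, edgeR adjusted p = 0.989), in a fit that called 0 of 6291 genes. In 16 other settings the log2 change stayed negative, with -2.41 without mouse 3 and -1.40 without mouse 4. Some of those settings called it, among them 3 other ways of assigning cells to tags, but the shares of all genes they called are not given here. In the segments where *Spp1* was highest, genotypes overlapped. DT-like cells had 2415 and 903 CPM against 1195 and 2654 CPM (-0.23, SE 0.41, edgeR adjusted p = 0.974), where the sign turned without mouse 2 (0.32) or mouse 4 (0.48). LOH-like cells had 985 and 1011 CPM against 732 and 1232 CPM (0.01, SE 0.21, edgeR adjusted p = 0.995), with -0.31 without mouse 3 and 0.42 without mouse 4. In cluster 5 *Spp1* was at 47.8 and 46.3 CPM against 102 and 56.9 CPM (-0.80, SE 0.25, edgeR adjusted p = 0.269), with -0.31 without mouse 3 and -1.16 without mouse 4. *Prom1* there was at 75.0 and 86.8 CPM against 104 and 88.7 CPM (-0.27, SE 0.17, edgeR adjusted p = 0.683).

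*Lcn2*, *Ccl2* and *Cd24a* were called in no class by edgeR in the 4 mice. In UB-like cells *Lcn2* was at 383 and 246 CPM against 196 and 458 CPM (-0.13, SE 0.36, not called), so each genotype had a high and a low mouse, and the sign turned without mouse 2 (0.14) or mouse 4 (0.57). The largest log2 changes of *Lcn2* were in classes where it was low or in few cells. Endothelial-like cells had 2.20 and 0.99 CPM against 5.45 and 18.4 CPM (-2.73, SE 0.72, edgeR adjusted p = 0.674), and immune-like cells 10.8 and 21.2 CPM against 38.3 and 163 CPM (-2.59, SE 0.66, edgeR adjusted p = 0.975). Without mouse 3 these changes were -3.43 and -3.29, and without mouse 4 they were -1.76 and -1.41. In immune-like cells *Ccl2* was at 132 and 251 CPM against 26.4 and 108 CPM (1.54, SE 0.52, edgeR adjusted p = 0.993), with a UMI in 65.4% and 61.1% against 16.4% and 57.1% of 26, 36, 73 and 35 cells. The lowest value was mouse 3. The log2 change was 0.84 without mouse 3 and 2.67 without mouse 4. *Cd24a* was tested in 18 classes, and in stroma-like cells it was at 183 and 175 CPM against 113 and 99.7 CPM (0.69, SE 0.21, edgeR adjusted p = 0.832), with 0.79 without mouse 3 and 0.60 without mouse 4. The *Cd24a* change was -0.32 in NPC-like and -0.48 in renal vesicle-like cells, and -0.44 and -0.69 without mouse 3. In LOH-like cells it was 0.30, with 0.07 without mouse 3 and 0.57 without mouse 4.

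Summed over all cells of a mouse, which mixes levels per cell with the numbers of cells of each type, *Vcam1* was at 75.8 and 78.6 CPM against 36 and 20.6 CPM (1.40, SE 0.26, edgeR adjusted p = 0.0991) and *Spp1* at 441 and 347 CPM against 207 and 273 CPM (0.67, SE 0.18, edgeR adjusted p = 0.187). *Krt20* was at 1.36 and 0.869 CPM against 0.398 and 0.446 CPM (1.34, SE 0.38, edgeR adjusted p = 0.196), while its level within PT-like cells overlapped between genotypes. Of the 7 members tested 0 were called, against 0.206% of 16524 genes, and 5 had an unadjusted p under 0.05, against 15.7%. These 5 include *Vcam1*, *Spp1* and *Prom1*, which the study picked on these same samples. DESeq2 called *Vcam1* (adjusted p = 9.83e-06) and *Spp1* (adjusted p = 0.0367), and 4.25% of all genes. Without mouse 3 edgeR called 2 members and 11.4% of all genes, and without mouse 4 it called 4 members and 26.2% of all genes.

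Whether a change differed between classes was tested with an interaction of class and genotype and the mouse as a block. With PT-like cells as the reference, 86 tests of members over 17 classes gave 3 calls. The change of *Vcam1* was higher in PT-like than in stroma-like cells by 2.38 on the log2 scale (SE 0.28, edgeR adjusted p = 2.95e-04), in a fit that called 0.332% of genes, and it remained called without each mouse, from 2.12 to 2.65 (without mouse 3, 2.12, edgeR adjusted p = 3.92e-06). Against cluster 5, the change of *Prom1* was higher by 1.09 (SE 0.21, edgeR adjusted p = 0.0152) and that of *Spp1* by 1.31 (SE 0.26, edgeR adjusted p = 0.0241), in a fit that called 0.386% of genes. *Prom1* was not called there without mouse 1 (edgeR adjusted p = 0.0703), nor *Spp1* without mouse 3 (0.69, edgeR adjusted p = 0.0508).

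**Figure D5:**
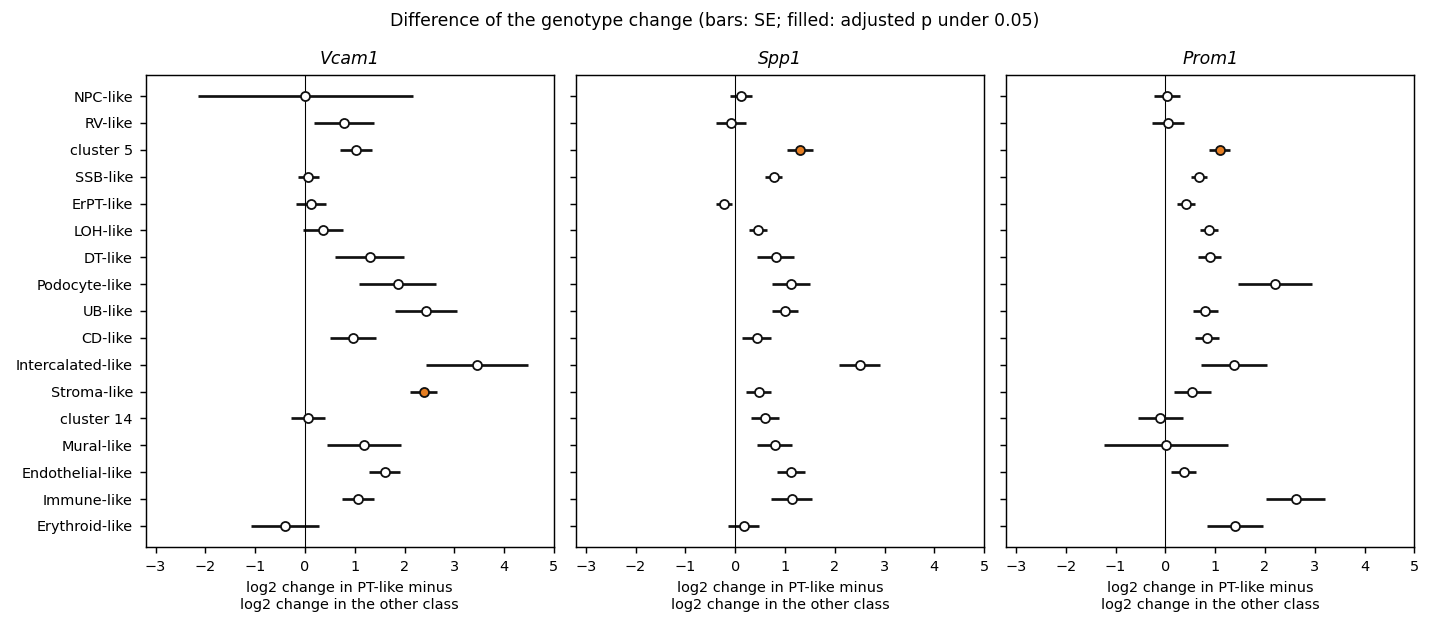
Difference between the log2 change (ko over wt) in PT-like cells and that in each of 17 other classes, for *Vcam1*, *Spp1* and *Prom1*, with SE as bars and filled points for an adjusted p under 0.05. The filled points are *Vcam1* against stroma-like cells (2.38) and *Spp1* and *Prom1* against cluster 5 (1.31 and 1.09), and the points against ErPT-like and SSB-like cells lie near 0 for *Vcam1*.

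Between PT-like and ErPT-like cells the change of *Vcam1* differed by 0.12 (SE 0.30, edgeR adjusted p = 0.992, 0.0856% of genes called), of *Spp1* by -0.23 (SE 0.16, edgeR adjusted p = 0.896) and of *Prom1* by 0.42 (SE 0.18, edgeR adjusted p = 0.790). Without mouse 3 the *Vcam1* difference was 0.81 and was called (edgeR adjusted p = 0.00194). The call of *Vcam1* in ErPT-like and not in PT-like cells is therefore no evidence that its change differed between them. With ErPT-like cells as the reference, chosen after the data were seen, 74 tests over 16 classes gave 2 calls, *Vcam1* against stroma-like cells (2.38, SE 0.36, edgeR adjusted p = 6.92e-04, 0.309% of genes called) and *Spp1* against intercalated-like cells (2.79, SE 0.39, edgeR adjusted p = 0.0094, 0.0873% of genes called). The *Vcam1* difference was not called without mouse 1 (2.64, edgeR adjusted p = 0.373) and was 1.31 without mouse 3 (edgeR adjusted p = 0.0156), and the *Spp1* difference was not called without mouse 1 (2.57, edgeR adjusted p = 0.0576). Intercalated-like cells numbered 10, 19, 38 and 25 in mice 1 to 4.

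Other genes of injury and repair were set beside the members. Of 44 further injury genes, among them *Sox9*, *Krt8*, *Clu*, *Cdkn1a* and *Tgfb2*, 38 were tested in PT-like cells and 0 were called by edgeR, while 13 had an unadjusted p under 0.05, 4 of them higher in *Trim28* Δ/Δ mice, against 0.426% and 9.54% of all genes, with a median log2 change of -0.02 against -8.40e-05 over all genes. In ErPT-like cells 0 of 36 were called and 8 had an unadjusted p under 0.05, 5 of them higher, against 0.373% and 7.76% of all genes, with a median of -0.13 against -0.01. The members had a median log2 change of 0.36 in PT-like and 0.59 in ErPT-like cells. These medians include *Vcam1*, *Spp1* and *Prom1*, which the study picked on these same samples, so they are no test against the further genes. Of 26 genes of the mature proximal tubule, 0 of 26 were called in PT-like cells and 11 had an unadjusted p under 0.05, 2 of them higher, again against 0.426% and 9.54% of all genes, with a median of -0.12. In ErPT-like cells 2 of 22 fell and 0 rose, with a median of -0.83, and 17 had an unadjusted p under 0.05, 0 of them higher, against 0.373% of all genes called and 7.76% at that p. The genes called were *Slc34a1*, the phosphate transporter, at 92.9 and 92.4 CPM against 255 and 203 CPM (-1.33, SE 0.17, edgeR adjusted p = 0.0184), and *Lrp2*, the endocytic receptor megalin, at 188 and 276 CPM against 475 and 504 CPM (-1.09, SE 0.17, edgeR adjusted p = 0.0488), both named after their values were seen. *Lrp2* and *Slc34a1* are also among the markers that named these classes. The study itself reported *Slc34a1* as lower in the PT cells of these same samples, so its direction here is not independent evidence.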

How the data were processed

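Kidney cells of the 4 named mice, separated by protease in the cold, were sequenced in 1 pool of 3' single-cell libraries, together with cells of further tags. The free RNA is that of this whole pool. The authors deposited an unfiltered matrix of raw UMI counts made with Cell Ranger (6.0.0 in the submitters' processing notes), with 3921239 barcodes, 32285 genes and 12 tags, of which 4 are named for mice. No source used here names the build or annotation behind them. The matrix holds 1 library, so no barcodes are shared between libraries.

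Barcodes with at least 6891 UMIs, 200 genes and at most 10% mitochondrial UMIs (19272) were assigned with HTODemux (Seurat 5.3.0, positive quantile 0.99), and cells with several tags (4721) or none (2680) were left out. The tags CMO301, CMO302, CMO303 and CMO304, named for no mouse, held 1181, 1105, 1119 and 1103 cells, which were left out as well. Scrublet marked 7.456% of the assigned cells, which were kept. Cells were normalised with SCTransform (sctransform 0.4.2) and clustered on 30 principal components at resolution 0.8. UMIs were summed per class and mouse and tested with edgeR 4.0.16 (quasi-likelihood, filterByExpr, TMM). CPM are shares of UMIs without TMM. Levels, similar genes and shares of cells were given for the 8 genes by symbol, and further genes named were the 3 most alike in profile over classes, those reaching 10 CPM in some class. DESeq2 1.42.0 and other settings were tried as alternatives. On simulated counts for PT-like cells, 94 of 100 4-fold (94%) and 67 of 98 2-fold changes (68.4%) were recovered. Beside these calls, 39 unchanged genes were called, among 12254 genes tested. For ErPT-like cells 91 of 99 (91.9%) and 30 of 99 (30.3%) were recovered, and 5 unchanged genes were called, among 10982 tested. The simulation drew genes independently, with no mouse that stood apart as mouse 3 did, so these rates may not hold for the data. The members and lists were chosen with earlier results of these data known.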

Additional observations from a re-analysis of the deposited data

Results flagged for a closer look

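The genotype change differed between classes, by the interaction test, in 5 results. The change of *Vcam1* (log2, *Trim28* Δ/Δ over *Trim28* f/f) was higher by 2.38 in PT-like than in stroma-like cells and by 2.38 in ErPT-like than in stroma-like cells. That of *Prom1* was higher by 1.09, and that of *Spp1* by 1.31, in PT-like cells than in cluster 5. That of *Spp1* was higher by 2.79 in ErPT-like than in intercalated-like cells, of which mouse 1 had 10 cells. In the stroma-like cells the highest *Vcam1* value was that of mouse 3, at 116 CPM, and in cluster 5 the highest *Spp1* value was also that of mouse 3, at 102 CPM. The part of that mouse in these results is given by the fits without it in the report.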

How the results depend on the processing

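In PT-like cells, where 0 members were called, DESeq2 called 1 (*Prom1*), no filter beyond 1 count 3, HTODemux with k-means 1 (*Spp1*), PT-like joined with ErPT-like cells 1 (*Vcam1*) and cluster 6 alone 1 (*Vcam1*), and leaving out a mouse gave 0 to 3. Of all genes in PT-like cells, 53 were called, against 102 with DESeq2, 602 without the filter, 81 with a tag share of at least 70%, 133 with k-means, 105 with the classes joined and 2 to 1600 without a mouse. Members called in any class numbered 1, against 3 with DESeq2, 12 without the filter (where all-gene shares rose to 2.05% in ErPT-like, 2.5% in NPC-like and 3.07% in PT-like cells), 4 with k-means and 2 each with clustering without called genes, resolution 1.2, the tag share, a minimum of 2500 UMIs and scaling per tag, and 0 to 15 without a mouse. Over all cells 0 became 2 with DESeq2 (4.25% of all genes called), 3 without the filter (3.8%) and 0 to 4 without a mouse (0.362% to 26.2%). The 3 interactions (0.258% of all tests called) became 3, 5, 13 and 19 without mice 1, 2, 3 and 4 (0.228%, 0.207%, 0.688% and 2.86%). The settings named for members called in any class, other than the missing filter and a missing mouse, also had all-gene shares. These were 0.344% to 0.553% in ErPT-like, 0.458% to 1.09% in PT-like and 0.76% to 1.8% in NPC-like cells. The reported fits called 0.373%, 0.426% and 1.51%. Shares of the other classes in these settings are not given here. The mean level of *Spp1* in DT-like cells was 826 CPM and that of *Cd24a* in PT-like cells 108 CPM at resolution 0.4. That of *Lcn2* in PT-like cells was 0.424 CPM with free RNA subtracted. The cause was not tested. No change that was called in either fit turned sign, while 109 values of uncalled changes did under some setting. *Vcam1* in PT-like cells had a positive log2 change in 19 of 19 settings, from 0.78 to 2.11. Joining classes, single clusters and scaling per tag were chosen after seeing the data. No paired analysis was possible because the mice of the pool share no replicate numbers across genotypes. Depth limits *Havcr1*, *Ccl2* and *Krt20* outside their main classes.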

Other observations

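Over all classes the further injury genes gave 9 calls in 478 tests, 5 higher and 4 lower in *Trim28* Δ/Δ mice, where 0.324% of all tests of all genes were called. The genes below were named after their values were seen. *Sox9* was lower and *S100a11* higher in cluster 5 (0.861% of all genes called), *Anxa2* and *Krt18* were lower in DT-like cells (0.837%), and in NPC-like cells (1.51%) *Clu* was higher and *Myc* lower. The other 3 calls were *Il34*, which encodes a ligand of the macrophage receptor CSF1R, higher in cluster 5, podocyte-like and renal vesicle-like cells. In podocyte-like cells it was at 108 and 127 CPM in mice 1 and 2 and at 1.13 and 2.77 CPM in mice 3 and 4 (log2 change 5.84, edgeR adjusted p = 8.29e-04), in a fit that called 0.135% of genes. In renal vesicle-like cells it was at 35.7 and 29.9 CPM against 0.842 and 2.69 CPM (4.14, edgeR adjusted p = 0.00478), in a fit that called 0.294% of genes. The renal vesicle-like class is cluster 8, led by *Pcp4*, *Lsp1* and *Wt1* with 0 renal vesicle markers among its 10 leading genes, and its podocyte score was 0.927 against a renal vesicle score of 1.065.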
